A study of Mus musculus with 6 samples.

Results

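Insulin and insulin-like growth factor (IGF) signalling was described in pancreatic islets through 9 genes: the ligand genes Igf1 and Igf2, the receptor genes Insr, Igf1r and Igf2r, the receptor substrates Irs1 and Irs2, the kinase gene Akt2 and the transcription factor gene Foxo1. Members were all probe sets that the platform annotation assigns to one of these symbols alone, which gave 25 probe sets out of 45037, and the 9 genes are of 18193 named on the array. RNA came from islets of Langerhans of wild-type male OF-1 mice, an outbred stock, at postnatal day 30. Exposure was in the womb: the dams received either vehicle or bisphenol-A (BPA), an estrogen-like compound used to make plastics, in daily doses of 10 or 100 µg/kg between gestation days 9 and 16. The groups, called vehicle, BPA10 and BPA100 here, had 2 Affymetrix arrays each, and the study asked how such exposure affects beta-cell growth in early life. Vehicle replicate 1 pooled islet RNA of 5 mice and BPA10 replicate 2 pooled that of 2 mice. The other 4 arrays each stood for 1 mouse. The labels do not name the litters, so tests measure only the spread between these arrays.

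Insulin and the IGFs act on cells through a pair of related receptor tyrosine kinases, encoded by Insr and Igf1r. The activated receptors phosphorylate the adaptor proteins Irs1 and Irs2, which recruit phosphoinositide 3-kinase and so activate Akt kinases. Akt phosphorylates Foxo1 and thereby moves it out of the nucleus, which ends its action on target genes. Igf2r is not a signalling kinase: it binds Igf2 and carries it to lysosomes for breakdown. Igf2 and Igf2r are imprinted genes in the mouse, expressed from the paternal and the maternal copy respectively. In beta cells this pathway is known for its role in growth, survival and the adjustment of beta-cell mass, with Irs2 as a main adaptor.

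Values are signals per probe set on a linear scale, scaled by the submitters to a common trimmed mean per array, and array medians lay between 33 and 40. Differences are given as differences of mean log2(signal + 1) ± standard error (SE), on which the added 1 makes changes of low signals look smaller. Probe sets were tested where their mean log2 lay at or above the 40th percentile, a signal of about 23.3, which 27022 probe sets and 21 of the 25 member probe sets passed. Beta-cell markers were bright: Iapp lay between 9386 and 12296 and Slc2a2 between 5365 and 6800, and none of the 8 beta-cell markers found was at 0 on any array. The arrays also carried RNA of other pancreatic cells, and the summed signal of 14 acinar (enzyme-secreting) markers was 84596 and 56091 on the vehicle arrays, 115680 and 108394 on the BPA10 arrays and 112141 and 73079 on the BPA100 arrays. Immediate-early genes, which respond to tissue handling, had a summed signal over 9 genes of 4628 and 2460 on the vehicle arrays, 4750 and 1010 on the BPA10 arrays and 1017 and 1114 on the BPA100 arrays. The part of these cells and responses in the values below was not tested. In such bulk samples, fewer cells of a type and less RNA per cell cannot be told apart. The ratio of the 3′ to the 5′ control probe set of Actb, a measure of RNA integrity, lay between 1.62 and 1.72 on the 6 arrays. The same ratio for Gapdh was 0.77 and 0.657 on the vehicle arrays, 0.841 and 0.887 on the BPA10 arrays and 0.771 and 0.689 on the BPA100 arrays, so that both BPA10 arrays lay above the others. Its part in the values was not tested.

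On the BPA100 arrays, the leading probe sets of Igf1, Igf2r, Irs1, Irs2 and Akt2 all lay below both vehicle arrays, and that of Insr lay above both. The leading probe set is the brightest of a gene over the 6 arrays. On the BPA10 arrays, Insr again lay above both vehicle arrays, and Igf2r and Irs2 below both, while Igf1, Irs1 and Akt2 overlapped with vehicle. The largest difference among the leading probe sets was that of Igf1, which at the higher dose measured 0.547 of its vehicle level, and the others differed from vehicle by at most 0.48 log2 units at either dose. None of the 21 tested member probe sets passed limma's test after Benjamini-Hochberg adjustment over all probe sets, in any comparison of the groups.

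For BPA100 against vehicle, 12 of the 21 tested member probe sets (57.1%) had arrays without overlap, beside 31.9% of all probe sets tested. Of these, 3 were higher, beside 16.1% of all probe sets, and 9 were lower, beside 15.8%. All 3 higher ones were of Insr, and the dim ones among them passed the brightness filter only with their BPA100 arrays counted. The higher counts are thus partly set by the filter. By difference of means, 6 of the 21 were above 0 and 15 below, beside 49.1% and 50.8% of all probe sets, and their median was -0.24, beside -0.0047 over all. That median was -0.071 without vehicle replicate 1 and -0.076 without BPA100 replicate 2. An unadjusted limma p under 0.05 was reached by 5 of the 21 (23.8%), beside 3.98% of all probe sets. These were 1 higher probe set, of Insr (2.11% of all), and 4 lower ones, 2 of Igf1 and 1 each of Igf2r and Irs1 (1.87% of all). The higher one is among the dim Insr probe sets that passed the filter only with their BPA100 arrays counted. The adjusted p was 1 for each member, and 0% of all probe sets passed. Probe sets of 1 gene share a transcript, so the 5 stand for 4 genes. Averaged over each gene's tested probe sets, 1 of 9 members, lower, had an unadjusted limma p under 0.05, beside 543 of 13193 genes. With no brightness filter 4 of 25 member probe sets had one, and with a filter at the 60th percentile 4 of 15, all of them lower. The count of 5 rested on single arrays, since it was 0 without vehicle replicate 1 or without BPA100 replicate 2, and 2 without vehicle replicate 2 or without BPA100 replicate 1. It was 3 after centring each array on its median, and 1 with no intensity trend in the variance or with only arrays of 1 mouse.

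For BPA10 against vehicle, which shares the vehicle arrays with the comparison above, 7 of 21 (33.3%) had arrays without overlap, beside 36% of all probe sets. Of these, 2 were higher and 5 lower, beside 17.5% and 18.6%. By difference of means, 12 were above 0 and 9 below, beside 50.1% and 49.9%, with a median of 0.06, beside 0.00082 over all. The sign of this median rested on single arrays, since it was -0.068 without vehicle replicate 2, -0.024 without BPA10 replicate 2 and 0.0076 without BPA10 replicate 1. An unadjusted p under 0.05 was reached by 1 of 21 (4.76%), lower and of Igf2r, beside 7.08% of all probe sets (3.12% higher and 3.96% lower). That count was 0 without vehicle replicate 2, BPA10 replicate 1, BPA100 replicate 1 or BPA100 replicate 2, and 2 without vehicle replicate 1 or BPA10 replicate 2. At the lower dose the members' shares were thus close to or under the background. Between the doses, 10 of 21 had arrays without overlap (30.7% of all) and 3 an unadjusted p under 0.05 (4.75% of all), a count that was 0 without BPA100 replicate 2 and 2 without either BPA10 array. For both doses together against vehicle these counts were 6 (14.5% of all) and 1 (5.69% of all). The latter was 0 without vehicle replicate 2 or BPA100 replicate 2, and 2 without vehicle replicate 1 or BPA10 replicate 2.

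**Figure D1:**
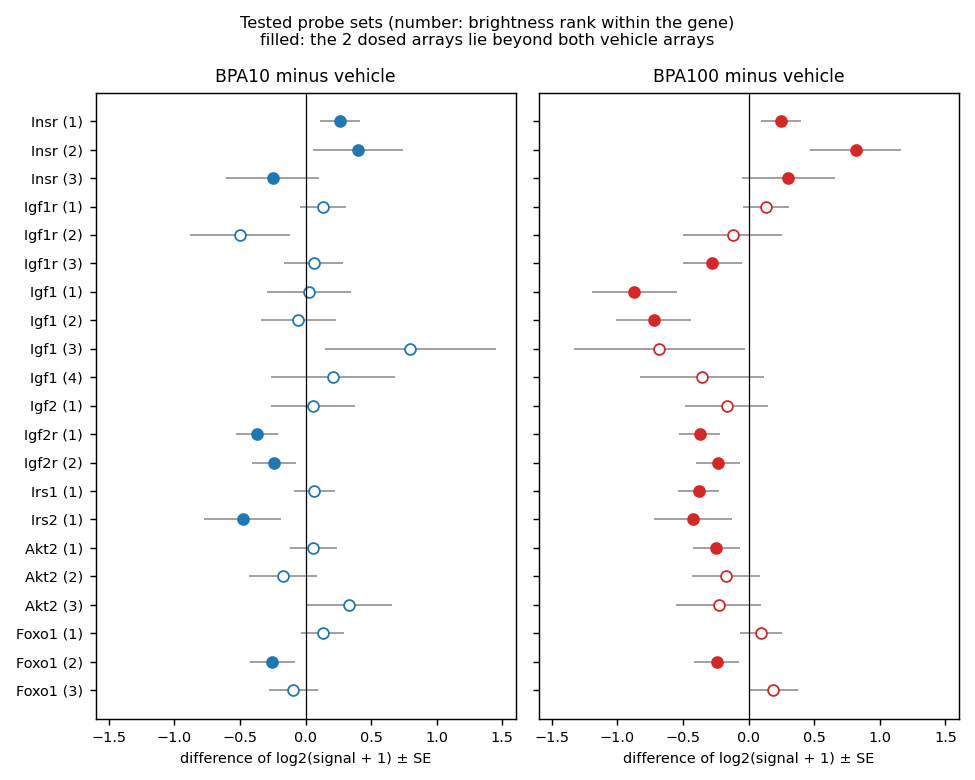
Difference from vehicle in log2(signal + 1) for each of the 21 tested member probe sets, BPA10 on the left and BPA100 on the right. Points are differences of group means of 2 arrays, bars are the moderated SE, numbers in brackets rank a gene's probe sets by brightness, and filled points mark groups whose arrays do not overlap. At BPA100, 15 of 21 points lie below 0, and at BPA10, 9 of 21.

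Igf1 encodes insulin-like growth factor 1, the circulating and local growth factor that binds Igf1r. Its leading probe set measured 182 and 144 on the vehicle arrays, 215 and 126 on the BPA10 arrays and 114 and 68 on the BPA100 arrays. The vehicle and BPA10 arrays overlapped, and both BPA100 arrays lay below all others. The difference of BPA100 from vehicle was -0.87 ± 0.32 and from BPA10 -0.89 ± 0.32 (limma adjusted p = 1 and 0.964), and BPA10 differed from vehicle by 0.024 ± 0.32. A second probe set gave 160 and 157, 206 and 113, and 109 and 84 in the same order of groups. It too was lowest on the BPA100 arrays, by -0.72 ± 0.29 from vehicle.

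The other Igf1 probe sets spread more widely between arrays of one group. One measured 136 and 38 on the vehicle arrays, 159 and 100 on the BPA10 arrays and 79 and 25 on the BPA100 arrays (-0.68 ± 0.65 for BPA100). The dimmest measured 48 and 26, 60 and 28, and 34 and 22 (-0.36 ± 0.47). All 4 probe sets were lower in BPA100 than in vehicle by group mean, and each was highest on BPA10 replicate 1 and lowest on BPA100 replicate 2.

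Markers of cells that are known to make Igf1 outside the endocrine cells also varied between the arrays. The mean of 16 stellate-cell and fibroblast markers, relative to the vehicle mean, stood at 0.18 and -0.18 on the vehicle arrays, 0.71 and 0.04 on the BPA10 arrays and -0.34 and -0.64 on the BPA100 arrays, with 15 of 16 lower in BPA100. Their summed signal was 8825 and 6914, 13513 and 7972, and 6966 and 5167, and none was at 0. For 12 macrophage markers the mean stood at 0.45 and -0.45, 0.24 and -0.26, and -0.59 and -0.56, with 11 of 12 lower in BPA100. Unlike the Igf1 probe sets, this mean was highest on vehicle replicate 1. Summed signals were 4818 and 1953, 3135 and 2068, and 1655 and 1810, again with none at 0. Lyz1 (2003 and 261 on the vehicle arrays) and Lyz2 (803 and 142) weighed heavily in them. Those genes also fell most at BPA100, by -1.91 and -1.77. The other lower markers lay between -0.79 (Cd14) and -0.12 (C1qb), and Mrc1 was higher by 0.20. The 8 beta-cell markers stood between 0.08 and 0.31 on the 4 BPA arrays. Lower means at BPA100 were not particular to stellate, fibroblast and macrophage markers. They were also found for 6 of 7 duct markers and 9 of 9 immediate-early genes, but for only 1 of 14 acinar markers. The duct mean stood at -0.15 and 0.15, 0.68 and 0.07, and -0.06 and -0.66 in the same order of groups. The part of these cells and responses in the Igf1 values was not tested.

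**Figure D2:**
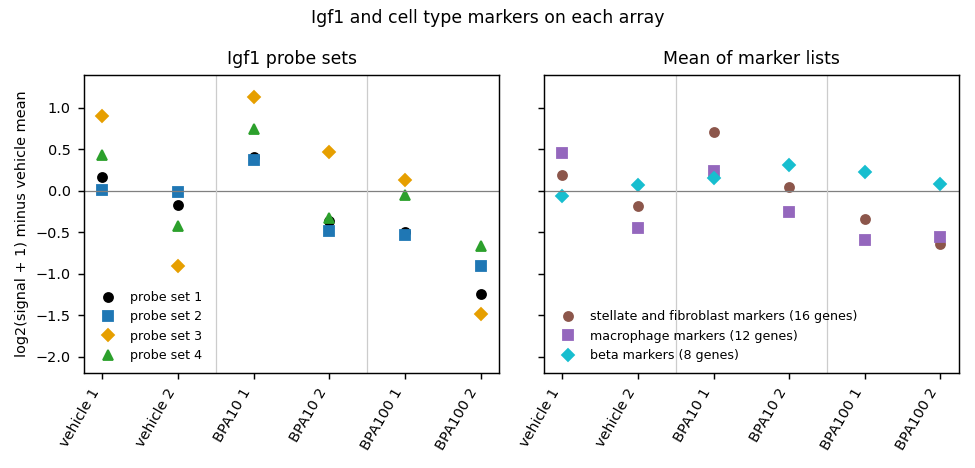
The 4 Igf1 probe sets (left) and the means of 3 marker lists (right) on each of the 6 arrays, as log2(signal + 1) minus the vehicle mean, where 1 point is 1 array and grey lines part the groups. The stellate and fibroblast markers lie between -0.64 and -0.34 on the BPA100 arrays, where the leading Igf1 probe set lies at -0.50 and -1.24.

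Igf2 encodes the second growth factor of the family, abundant in fetal life and lower after birth in the mouse. The leading Igf2 probe set measured 75 and 48 on the vehicle arrays, 60 and 65 on the BPA10 arrays and 66 and 43 on the BPA100 arrays. The 3 groups overlapped, with differences of 0.06 ± 0.32 for BPA10 and -0.17 ± 0.32 for BPA100. A further Igf2 probe set lay between 3 and 19 on the 6 arrays and did not pass the brightness filter.

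Insr encodes the insulin receptor. Its leading probe set measured 257 and 283 on the vehicle arrays, 298 and 352 on the BPA10 arrays and 318 and 322 on the BPA100 arrays. All 4 BPA arrays lay above both vehicle arrays, and the BPA groups overlapped. The differences from vehicle were 0.26 ± 0.15 for BPA10 (1.2-fold, limma adjusted p = 0.784), 0.25 ± 0.15 for BPA100 and 0.25 ± 0.13 for the mean of both doses (adjusted p = 0.889). The BPA10 difference was 0.14 without BPA10 replicate 2, and 0.074 with only arrays of 1 mouse.

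The remaining Insr probe sets were dim, with signals near the brightness filter. One measured 18 and 21 on the vehicle arrays, 25 and 27 on the BPA10 arrays and 36 and 34 on the BPA100 arrays, so that no groups overlapped and the order followed the dose. It differed from vehicle by 0.40 ± 0.35 for BPA10 and 0.82 ± 0.35 for BPA100, the latter 1.76-fold. The other measured 24 and 25, 19 and 22, and 32 and 29, which put BPA10 below and BPA100 above vehicle (-0.25 ± 0.35 and 0.30 ± 0.35). All 3 Insr probe sets were therefore above both vehicle arrays at BPA100, but not at BPA10, and none passed the test. The dim ones passed the brightness filter only with their BPA100 arrays counted. The count of 3 at BPA100 is thus partly set by the filter.

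Igf1r encodes the IGF1 receptor, the closest relative of the insulin receptor. The brightest Igf1r probe set measured 376 and 467 on the vehicle arrays, 421 and 502 on the BPA10 arrays and 510 and 414 on the BPA100 arrays. The 3 groups overlapped, with 0.13 ± 0.18 for each dose against vehicle. Its other tested probe sets did not share a direction. One measured 271 and 558, 193 and 391, and 369 and 346, with wide gaps between arrays of one group, and differed by -0.50 ± 0.38 and -0.12 ± 0.38. The third measured 88 and 89, 87 and 98, and 64 and 83, with BPA100 below the other arrays (-0.28 ± 0.22). A pair of further Igf1r probe sets lay between 6 and 29 and did not pass the filter.

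Igf2r encodes the IGF2 and mannose 6-phosphate receptor, which clears Igf2 and sorts lysosomal enzymes. Its leading probe set measured 301 and 338 on the vehicle arrays, 231 and 263 on the BPA10 arrays and 257 and 236 on the BPA100 arrays. All 4 BPA arrays lay below both vehicle arrays, while the BPA groups overlapped. The difference was -0.37 ± 0.16 at each dose (limma adjusted p = 0.688 for BPA10 and 1 for BPA100) and -0.37 ± 0.14 for both doses together (adjusted p = 0.823). The second probe set measured 251 and 251, 191 and 236, and 204 and 222, again with all BPA arrays below vehicle, by -0.24 ± 0.17 at each dose. One more probe set, assigned jointly to Igf2r and to its antisense transcript, was left out because of the double assignment.

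**Figure D3:**
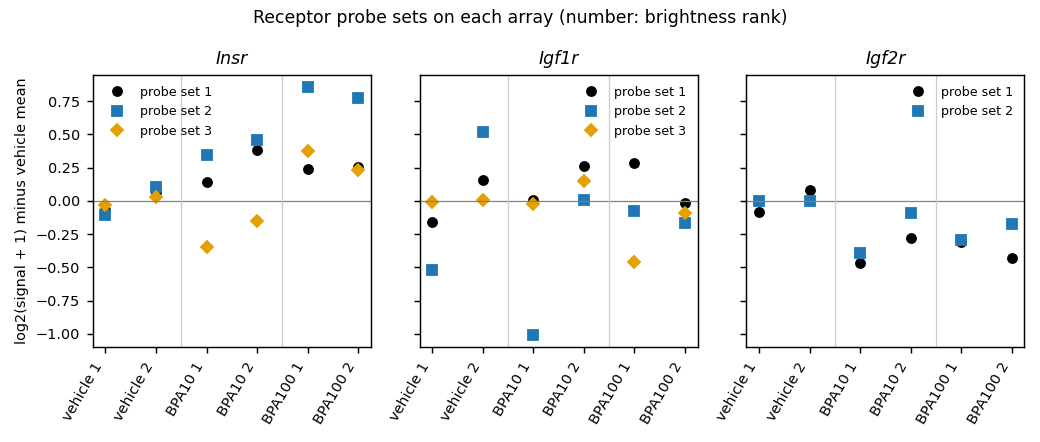
Tested probe sets of the 3 receptor genes on each of the 6 arrays, as log2(signal + 1) minus the vehicle mean of that probe set, where 1 point is 1 array and grey lines part the groups. Both Igf2r probe sets lie below 0 on all 4 BPA arrays, and those of Igf1r differ from each other in direction. The 3 Insr probe sets lie above 0 on both BPA100 arrays. The dim ones among them passed the brightness filter only with their BPA100 arrays counted.

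Irs1 and Irs2 encode the adaptors that link both receptor kinases to phosphoinositide 3-kinase, and each had 1 probe set. Irs1 measured 281 and 252 on the vehicle arrays, 260 and 298 on the BPA10 arrays and 205 and 203 on the BPA100 arrays. Vehicle and BPA10 overlapped, and both BPA100 arrays lay below the other 4. The difference of BPA100 was -0.38 ± 0.16 from vehicle and -0.45 ± 0.16 from BPA10 (limma adjusted p = 1 and 0.964), against 0.06 ± 0.16 for BPA10 from vehicle.

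Irs2 was dimmer, at 54 and 58 on the vehicle arrays, 33 and 48 on the BPA10 arrays and 39 and 44 on the BPA100 arrays. All 4 BPA arrays lay below both vehicle arrays, and the BPA groups overlapped. The differences were -0.48 ± 0.29 for BPA10, -0.43 ± 0.29 for BPA100 and -0.45 ± 0.25 for both doses (limma adjusted p = 0.889). The BPA10 difference was -0.22 without BPA10 replicate 1 and -0.74 without BPA10 replicate 2.

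Akt2 encodes the Akt kinase best known for insulin-stimulated glucose uptake. The leading Akt2 probe set measured 207 and 200 on the vehicle arrays, 186 and 241 on the BPA10 arrays and 169 and 174 on the BPA100 arrays. The BPA100 arrays lay below all others, by -0.25 ± 0.18 from vehicle and -0.30 ± 0.18 from BPA10, and BPA10 lay on both sides of vehicle (0.06 ± 0.18). The difference between the doses was -0.12 without BPA10 replicate 2 and -0.49 without BPA10 replicate 1. The other probe sets, at 66 and 57, 49 and 60, and 60 and 49, and at 52 and 33, 52 and 53, and 31 and 40, overlapped between vehicle and either dose.

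Foxo1 encodes the forkhead transcription factor that Akt holds out of the nucleus. Its leading probe set measured 447 and 359 on the vehicle arrays, 469 and 410 on the BPA10 arrays and 407 and 450 on the BPA100 arrays, and the groups overlapped (0.13 ± 0.16 and 0.10 ± 0.16). The second measured 228 and 223, 169 and 211, and 188 and 193, with all BPA arrays below vehicle by -0.25 ± 0.17 and -0.24 ± 0.17. The third measured 137 and 176, 143 and 148, and 173 and 181 and overlapped with vehicle at both doses (-0.09 ± 0.18 and 0.19 ± 0.18). The probe sets of Foxo1 thus gave different directions, and the remaining one, between 2 and 14, did not pass the filter. The leading probe sets of Akt2 and Foxo1 carry the suffix that the array's maker gives to probe sets matching several transcripts, so their signal may include more than 1 transcript.

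**Figure D4:**
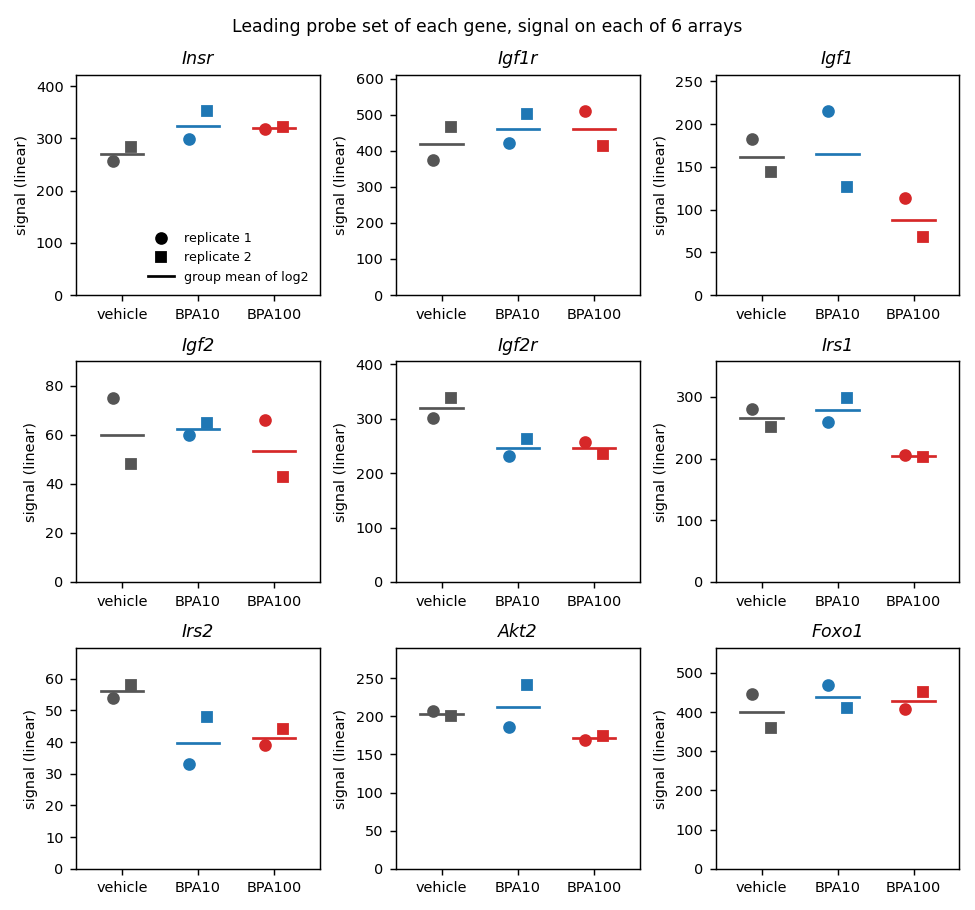
Signal (linear scale, from 0) of the leading probe set of each of the 9 genes, with circles for replicate 1, squares for replicate 2 and a line at the group mean taken on the log2 scale. The BPA100 points lie below both vehicle points for Igf1, Igf2r, Irs1, Irs2 and Akt2 and above them for Insr, and the groups overlap for Igf1r, Igf2 and Foxo1.

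The DNA before the start sites is shown for Igf2r, Irs1 and Irs2, the receptor and adaptor genes whose BPA100 arrays lay below vehicle. Sequences are those of RefSeq on build GRCm38.p6, 250 bases ending at the base before the annotated start, 5′ to 3′. Of the 9 members 8 were matched, with 14 annotated starts, and Insr was not. Capitals mark the E-box CACGTG, the site of basic helix-loop-helix factors, and TGTTTTG, a core of the insulin response element through which FoxO factors act, searched on both strands.
Igf2r (chr17:12769707-12769956, minus strand): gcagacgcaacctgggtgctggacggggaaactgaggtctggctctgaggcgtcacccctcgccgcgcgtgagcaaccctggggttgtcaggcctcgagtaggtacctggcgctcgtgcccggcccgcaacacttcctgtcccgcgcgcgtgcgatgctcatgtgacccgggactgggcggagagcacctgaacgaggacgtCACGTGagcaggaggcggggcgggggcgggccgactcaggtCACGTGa
Irs1 (chr1:82291440-82291689, minus strand): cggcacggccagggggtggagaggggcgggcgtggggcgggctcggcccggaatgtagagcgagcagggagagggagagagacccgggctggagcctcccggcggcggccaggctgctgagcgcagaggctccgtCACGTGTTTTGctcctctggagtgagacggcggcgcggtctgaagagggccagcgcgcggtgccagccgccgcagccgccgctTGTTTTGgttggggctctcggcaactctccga
Irs2 (chr8:11008930-11009179, minus strand): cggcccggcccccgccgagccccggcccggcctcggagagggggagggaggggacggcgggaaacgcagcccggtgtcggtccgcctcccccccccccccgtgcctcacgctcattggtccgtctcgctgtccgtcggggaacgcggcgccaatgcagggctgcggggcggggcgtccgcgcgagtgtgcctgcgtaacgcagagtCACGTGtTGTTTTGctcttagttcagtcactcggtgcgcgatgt
Irs1 and Irs2 hold both motifs close together. In Irs1 the E-box begins 115 bases and TGTTTTG 111 bases before the start, so that they overlap, and a second TGTTTTG begins 32 bases before it. In Irs2 they begin 44 and 37 bases before the start, and Igf2r has the E-box at 48 and at 7 bases. Among all 27025 genes with such windows, 6.86% hold CACGTG and 6.38% hold TGTTTTG in at least 1 window. No window of the other 5 matched members holds either motif. These include Igf1 and Akt2, whose leading probe sets also lay below both vehicle arrays at BPA100. The canonical FoxO core TGTTTAC (3.54% of all genes), the cAMP response element TGACGTCA (1.77%) and the palindromic estrogen response element (0.0666%) were in none of the 14 member windows, which says only that these letters are not in these windows. The motifs were chosen with the values known, and a match describes letters and not a bound site.

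The pathway beyond the 9 members was read from 6 lists with 105 entries, of which 91 were in the annotation and 79 were tested through their brightest probe set. None passed in either comparison with vehicle in limma. At BPA10 4 of 79 genes (5.06%) had an unadjusted p under 0.05, against 7.08% of all probe sets, and at BPA100 1 of 79 (1.27%), against 3.98%. The median difference was 0.08 at BPA10 and 0.07 at BPA100, beside 0.00082 and -0.0047 over all probe sets. The shares with an unadjusted p under 0.05 were under the background at both doses. That background counts every probe set tested and not only the brightest of each gene.

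IGF-binding proteins carry IGFs in body fluids and limit or prolong their action. Of 9 tested genes on that list, 6 were above and 3 below 0 at BPA10 (5 and 4 after quantile normalization), and 5 and 4 at BPA100. Igfbp3, which encodes a major carrier of IGFs in blood, measured 576 and 519 on the vehicle arrays, 521 and 428 on the BPA10 arrays and 819 and 742 on the BPA100 arrays. Both BPA100 arrays were above all others, by 0.51 ± 0.15 from vehicle (1.43-fold, limma adjusted p = 1), and its second probe set gave 0.38. At BPA10 the same probe sets gave -0.21 ± 0.15 and -0.45.

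Of the genes of phosphoinositide 3-kinase and Akt, 16 of 19 were above 0 at BPA10 (median 0.15) and 12 of 19 at BPA100 (median 0.13), against 50.1% and 49.1% of all probe sets. These counts rest on the brightest probe set of each gene, while the background takes in every probe set tested. The shares are therefore not of like sets. At BPA10 the other tested probe sets of Pik3ca, Pdpk1, Gsk3b and Foxo3 lay below 0. That of Trib3 lay above 0, and those of Pik3r1 and Akt1 lay on both sides. Pik3r3, a regulatory subunit of the kinase, measured 363 and 371 on the vehicle arrays, 424 and 548 on the BPA10 arrays and 529 and 437 on the BPA100 arrays. All BPA arrays lay above vehicle, by 0.39 ± 0.17 at either dose (limma adjusted p = 0.704 for BPA10). Among receptor adaptors and inhibitors, 8 of 16 were above 0 at BPA10 (9 after median centring) and 9 of 16 at BPA100 (10 after median centring). Socs3, an inhibitor that binds the insulin receptor and Irs proteins and is also induced in inflammation, fell outside the naming rule and was chosen after its values were seen. It measured 433 and 254, 261 and 170, and 256 and 218 in vehicle, BPA10 and BPA100, with overlapping groups (-0.65 ± 0.28 and -0.49 ± 0.28), on arrays where the immediate-early genes given above also varied. Its other probe sets gave -0.52 to -0.27 at BPA10 and -1.72 to -0.73 at BPA100, so the order of the doses differed between probe sets.

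Of 15 tested genes of the mTOR branch, which couples Akt to protein synthesis, 8 were above 0 at BPA10 (9 after median centring) and 6 at BPA100 (8 after median centring). Eif4ebp1, the translation inhibitor that mTOR phosphorylates, measured 288 and 192 on the vehicle arrays, 386 and 378 on the BPA10 arrays and 213 and 151 on the BPA100 arrays. It was higher on the BPA10 arrays than on all others, by 0.70 ± 0.24 from vehicle (limma adjusted p = 0.656), and its other probe sets gave 0.16 to 1.06. Deptor, an inhibitor within the mTOR complexes, measured 1015 and 1039, 1380 and 1196, and 1082 and 942, a difference of 0.32 ± 0.13 at BPA10 (adjusted p = 0.688), but its 4 other tested probe sets lay between -0.48 and 0.17. Of 7 tested genes of the Ras and MAP kinase branch, 3 and 5 were above 0 at BPA10 and BPA100. Differences of their brightest probe sets all lay between -0.13 and 0.23. Other tested probe sets of these genes spread more widely, from -0.45 for Braf to 0.76 for Rps6ka3, both at BPA100. Of 13 FoxO-linked genes, 9 were above 0 at each dose, with medians of 0.18 and 0.19 and no unadjusted p under 0.05. This count also rests on the brightest probe sets. At BPA10 the other tested probe sets of Ccng2, Sesn3, Bcl6 and Cdkn1b lay below 0. Those of Sesn1, Txnip, Cited2 and Cat lay above 0, and those of Fbxo32 and Sod2 on both sides.

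**Figure D5:**
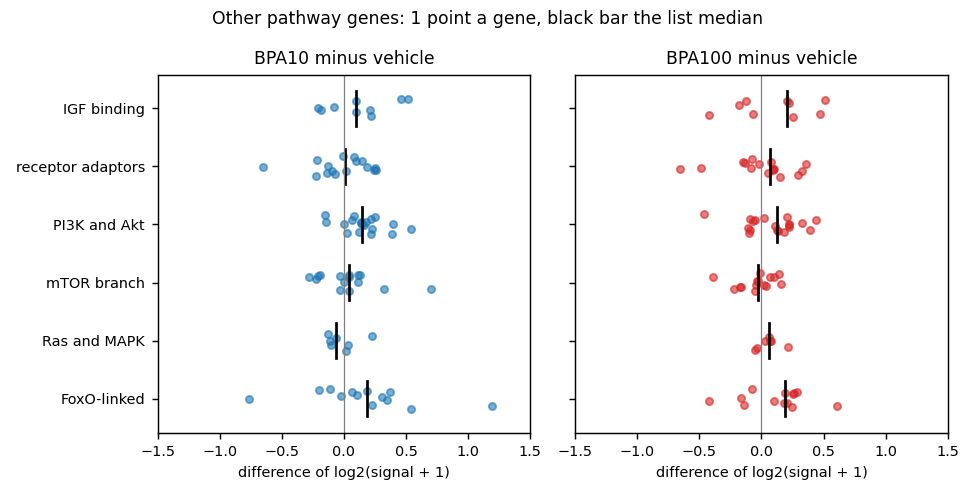
Differences from vehicle in log2(signal + 1) for 79 other genes of the pathway in 6 lists, 1 point a gene (brightest tested probe set), with BPA10 on the left and BPA100 on the right and a black bar at each list's median. The list medians lie between -0.07 and 0.20, and single genes lie between -0.76 and 1.19.

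Igf1 was the single member whose leading probe set spanned over 1 log2 unit across the arrays (1.65). Among 22410 tested probe sets of other named genes, those with the smallest root mean square difference from its centred log2 profile over the 6 arrays belonged to Rita1 (0.089), Timp1 (0.102) and Mei1 (0.121). Timp1, a secreted inhibitor of matrix metalloproteinases, measured 61 and 42 on the vehicle arrays, 74 and 43 on the BPA10 arrays and 38 and 25 on the BPA100 arrays. With 6 arrays and this many probe sets some near matches are found for any profile, so the likeness is given as a description.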

How the data were processed

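Per the labels' protocols, 150 ng of total RNA was amplified in 2 rounds and labelled with biotin before hybridisation. The authors deposited MAS5 signal intensities on a linear scale, per the submitters' processing notes, with the MAS5 version not given in the sources used. The values show a common scaling, since the trimmed mean of each array was 150.0. From these, log2(signal + 1) was computed with no further normalization, and 64 control probe sets were left out. A model with 1 mean per group over the 6 arrays was fitted in limma 3.58.1 (R 4.3.3) with an intensity trend (3 residual and 5.4 prior degrees of freedom). All p-values are 2-sided and were adjusted by Benjamini-Hochberg for 27022 probe sets, with 0.05 as the threshold. The code was tested on simulated data. An exact permutation test of 2 arrays against 2 cannot give a 2-sided p below 0.333. The number of arrays limits the precision, with a median SE of 0.24 for 2 against 2.

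All 9 members were named, and from the pathway lists genes with an unadjusted p under 0.05 and no overlap, up to 4 a direction and comparison. Members and lists were chosen with earlier results of these data known. RefSeq tables of GRCm38.p6 gave names and promoter sequences. Alternatives covered scaling, pseudocount, filter, variance model, arrays used, replicate number as a block and averaging over probe sets of a gene.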

Additional observations from a re-analysis of the deposited data

How the results depend on the processing

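No member probe set passed under any of the 17 alternative settings in the comparisons each was run for, which were all 4 except that the mean of both doses, which uses all arrays, was not fitted with only the arrays of the groups compared. Over all probe sets, where 0 passed in each comparison, single settings called a few. With each array centred on its median, 6 passed for BPA100 against vehicle and 1 for both doses against vehicle. With only the arrays of the groups compared, 1 passed for BPA10 and 4 for BPA100 against vehicle. The labels' replicate numbers were not shown to pair the arrays: replicate deviations correlated at 0.194, 0.199 and 0.0805 between groups, and the labels name no shared litter or batch. With the replicate block, 7 passed for BPA100 against vehicle and 1 for both doses. Without 1 array at a time the counts ranged from 0 to 9 for BPA10, 0 to 5 for BPA100 and 0 to 7 for both doses against vehicle, and from 0 to 1 between the doses.

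Leading probe sets of Insr, Igf2r and Irs2 kept their direction against vehicle at both doses in every setting that tested them, as did those of Igf1, Irs1 and Akt2 at BPA100. Most settings could not turn it. The arrays of these probe sets did not overlap with vehicle, so neither leaving arrays out nor a larger pseudocount could change the sign. Changes of the filter, variance model, groups fitted or replicate block leave the difference itself as it was. Only rescaling and, for genes with several probe sets, averaging over them could turn the direction. With only arrays of 1 mouse, the difference turned for Igf1r (-0.15 at BPA10, -0.023 at BPA100), Akt2 (-0.10 at BPA10) and Igf2 (0.15 at BPA100). Averaged over the probe sets of each gene, it turned for Igf1r (-0.10 and -0.089) and Foxo1 (-0.073 at BPA10). Without 1 array at a time, at BPA10 the differences ranged from -0.023 to 0.29 for Igf1r, -0.36 to 0.41 for Igf1, -0.26 to 0.37 for Igf2, -0.033 to 0.16 for Irs1, -0.13 to 0.24 for Akt2 and -0.028 to 0.29 for Foxo1. At BPA100 they ranged from -0.023 to 0.29 for Igf1r, -0.49 to 0.15 for Igf2, -0.063 to 0.25 for Foxo1 and -1.24 to -0.50 for Igf1. Between the doses they ranged from -1.28 to -0.51 for Igf1, -0.54 to -0.35 for Irs1 and -0.49 to -0.12 for Akt2. The causes were not tested. Dim probe sets, such as that of Irs2 and, nearer the filter, the dimmer ones of Insr, limit what these arrays can show.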
